A study of Drosophila melanogaster with 10 samples.

Results

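Transcript levels were described in whole adult females of 5 unselected control lines of Drosophila melanogaster, the fruit fly. The arrays were chosen by title alone, as those of control lines 1 to 5, and made up 5 of the 10 arrays of the study. The study measured expression in lines selected for heat resistance and in control lines. The selected lines enter no result here. Each control line gave 1 array of biotin-labelled total RNA, so the spread between lines is also the spread between arrays, and the 2 cannot be told apart. The base population, age, mating state, rearing temperature and number of females per extract are not stated in the labels.

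An egg-laying female fly turns food into eggs on a large scale. The fat body and the ovarian follicle cells make yolk proteins, the follicle cells then secrete the vitelline membrane and the chorion around the egg, and the nurse cells fill the egg with maternal messenger RNA. RNA from a whole female therefore mixes ovary with gut, fat body, thoracic muscle, head and epidermis. In such RNA, fewer cells of a type and less RNA per cell cannot be told apart.

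A level below is log2(intensity + 1), where the intensity is the GCRMA value that the authors deposited for each probe set, on a linear scale. Of 14010 probe sets, 44 array controls were left out, and the brightest probe set stood for each gene. This left 12367 features, of which 10844 carried the name of a single gene. The mean level was above 5 in 7147 features, or 57.8%, and all statements on spread concern these. The genes nearest that limit were CG6429 at 5.0004 and Nnf1a at 5.0028 on the inside, and Ppcs at 4.9998 and Kr-h1 at 4.9998 on the outside. Probe sets bind their targets with unequal strength, so an order of levels between genes is an order of brightness and not of transcript amount. Intensities ran from 0.830 to 32744. Probe sets for control sequences foreign to the fly and not added as controls of hybridisation read 2.13 to 3.56, and 2976 features were at or under the upper of these values.

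The 5 arrays were similar in scale. Their median intensities were 46.5, 41.9, 43.9, 44.1 and 47.0 in lines 1 to 5, and the correlation between arrays across features was 0.990 to 0.998 over the 10 pairs, with genes not being independent replicates. Lines 1 and 2 stood apart from the rest. In a principal component analysis the first component held 47.5% of the variance and set line 1, at 24.3, against lines 3 and 4, at -10.9 and -11.9. The second component held 32.7% and set line 2, at 20.4, against the others. Line 1 also had the largest mean excess of 3′ over 5′ signal on the array's own control genes, a measure of how complete the labelled RNA was. Averaged over actin, Gapdh and eIF4A, this excess was 2.27, 1.93, 1.83, 1.72 and 1.87 log2 units in lines 1 to 5. For Gapdh alone it was largest in line 5, at 1.90, against 1.87 in line 1 and 1.78 in line 2. The 3′ probe set for 18S ribosomal RNA read 12.49 in line 1 and 11.66 in line 2, against 11.23 to 11.34 in the other lines. No comparison of groups is made here, so no test was run and no p-value is given. For some genes and lists described below, the spread without line 1, line 2 or both is given beside the spread over all lines. Other spreads also moved by more than 1.5 times and are printed without such a value. Examples are osk, with an SD of 0.41, or 0.14 without line 2, and CG34166, with 0.26, or 0.085 without line 1. A spread printed alone is therefore not shown to be free of lines 1 and 2.

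The brightest named genes were those of egg formation, protein synthesis, protein turnover and energy supply. Yolk protein 1 (Yp1) was first at 14.73 ± 0.17 (SD, n = 5) and the vitelline membrane gene Vm34Ca followed at 14.62 ± 0.26. Of the 30 brightest named genes, 22 belonged to 1 of the 37 gene lists used here, as did 69 of the 100 brightest. The 100 brightest features held 24.6% of the summed intensity of all features. Among the 30 brightest features of any kind, 14 were unnamed here. Within the 30 named genes the SD between lines was 0.041 to 0.33, with a median of 0.11. Of the 29 steps between neighbours in that order, 26 were smaller than the pooled SD of the pair. The exceptions were the steps from Vm34Ca to Ubi-p5E, from Yp2 to RpL36A and from sesB to Hsc70-4.

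**Figure D1:**
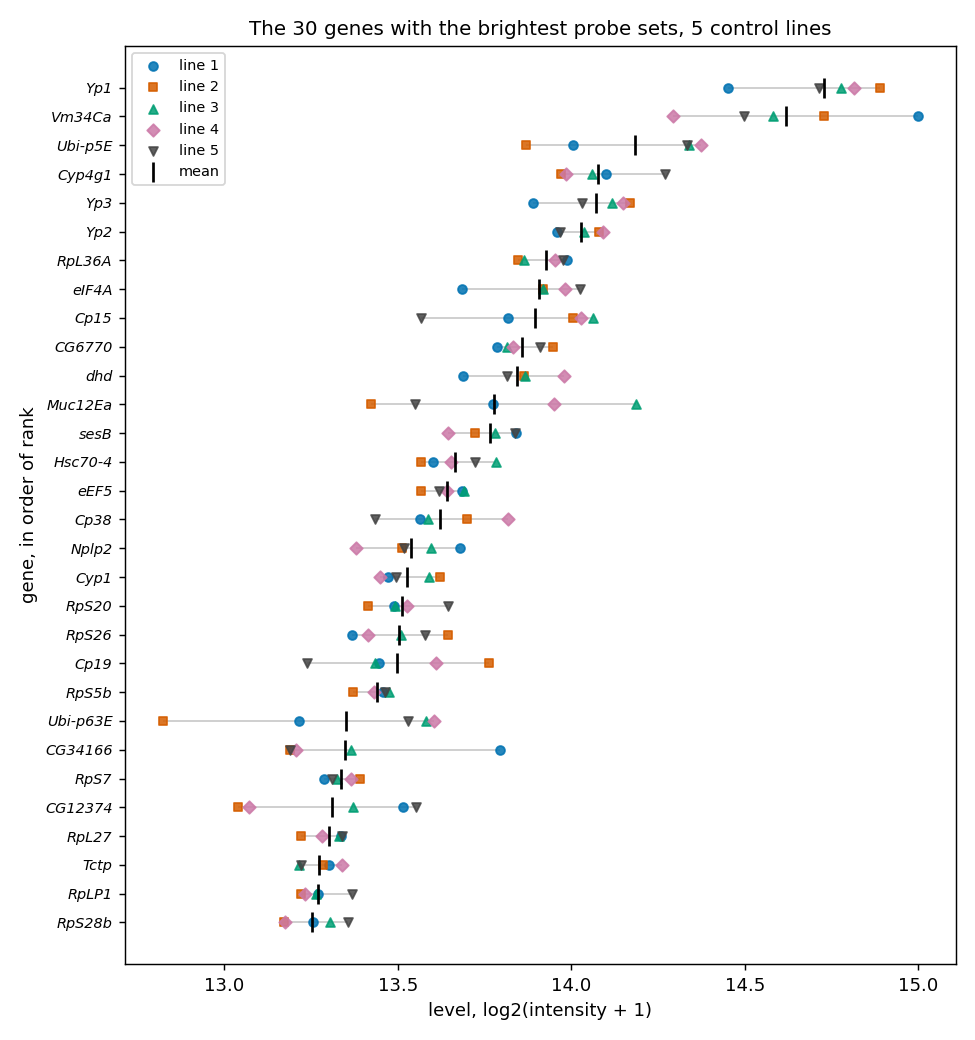
Levels of the 30 brightest named genes in control females, in log2(intensity + 1), with 1 point for each of the 5 lines and a bar at the mean. Yp1 lies at the top at 14.73 and RpS28b at the bottom at 13.25, and for most neighbouring genes the points of the lines overlap.

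Some of the 30 brightest genes fell in no large group. Muc12Ea, a mucin gene, read 13.78, 13.42, 14.19, 13.95 and 13.55 in lines 1 to 5, one of the widest spreads among the 30. CG34166, to which no role is given here, read 13.80 in line 1 and 13.19 to 13.36 in the others. CG12374 was at 13.31 ± 0.24, with lines 2 and 4 below the other 3. CG6770 was at 13.86 ± 0.07, and Nplp2, a gene for a neuropeptide-like precursor, at 13.54 ± 0.11.

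All 3 yolk protein genes were among the 6 brightest named genes. Yolk proteins are taken up by the growing oocyte as food for the embryo. Yp1 read 14.45, 14.89, 14.78, 14.81 and 14.72 in lines 1 to 5. Yp3 read 13.89, 14.17, 14.12, 14.15 and 14.03. Yp2 read 13.96, 14.08, 14.04, 14.09 and 13.97. Line 1 was the lowest for each of the 3 genes, against 26.9% of all features above 5, though for Yp2 line 5 was almost as low. The other 4 lines lay close together for Yp1. The gene for the oocyte's yolk receptor, yolkless (yl), was at 10.56 ± 0.13, with 10.44 in line 5 and 10.75 in line 3. Together the 4 genes held 1.36% ± 0.13 (SD, n = 5) of the summed intensity.

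The genes of the eggshell followed, and the order of the lines was not the same for its 2 layers. The chorion is the outer shell and the vitelline membrane the layer beneath it. All 9 measured chorion genes were above 5, with a median level of 12.72, and they held 1.40% ± 0.16 of the summed intensity. Cp15, a late chorion gene, read 13.82, 14.00, 14.06, 14.03 and 13.57 in lines 1 to 5. Cp38 read 13.57, 13.70, 13.59, 13.82 and 13.44, and Cp19 read 13.44, 13.76, 13.44, 13.61 and 13.24. Line 5 was the lowest for these 3 and for 8 of the 9 chorion genes. Over all 7147 features above 5, line 5 was the lowest in 15.8%. The mean deviation of the 9 genes from their own means was -0.30 in line 5 and 0.05 to 0.09 in the others. The range of that score over lines was 0.39, and 0.038 without line 5.

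Vitelline membrane genes ran in another order. All 5 were highest in line 1 and lowest in line 4, where these lines were the highest and lowest in 32.5% and 16.7% of all features above 5. Vm34Ca read 15.00, 14.73, 14.58, 14.29 and 14.50 in lines 1 to 5. Vm26Ac had the widest spread of the group and read 9.50, 8.14, 8.46, 7.51 and 8.28, a 3.97-fold difference between the highest and lowest line. Vm26Aa, Vm32E and psd, which is needed for a sound vitelline membrane, ran the same way with means of 12.31, 10.20 and 8.16. The highest line was more than 1 log2 unit, or 2-fold, above the lowest for 4 of the 5 genes, against 8.31% of all features above 5. The range of the list's score was 1.37, and 0.63 without line 1.

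Female germline genes were bright, with a spread near that of features of like level. All 31 measured genes of this list, which act in egg formation or are loaded into the egg, were above 5. Their median level was 10.15 and their median SD 0.13, against a median SD of 0.14 for all features between 9 and 11. The brightest was deadhead (dhd), a thioredoxin of the female germline, at 13.69, 13.86, 13.87, 13.98 and 13.82 in lines 1 to 5. Smaug (smg), an RNA-binding repressor of maternal messages, followed at 12.62 ± 0.39, with 12.12 and 12.29 in lines 1 and 2 and 12.83 to 12.93 in lines 3 to 5. The gene me31B, for a helicase that holds stored messages silent, was at 12.62 ± 0.11. Oskar (osk), which sets up the germ plasm, was the only one with a range over 1, against 8.31% of all features above 5. It read 12.12, 11.40, 12.47, 12.30 and 12.25, so that line 2 was below all others. The lowest of the 31 was gurken (grk), the oocyte's signal to the follicle cells, at 5.38 ± 0.33. The 12 genes of DNA replication had a median level of 8.99, led by RnrL, the large subunit of ribonucleotide reductase, at 11.88 ± 0.21. In this list line 1 was the lowest for 8 of the 12, against 26.9% of all features above 5. The gene dup, which licenses replication origins, read 9.81 and 9.89 in lines 1 and 2 and 10.55 to 10.67 in lines 3 to 5.

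Genes for making and removing proteins were among the brightest and least variable. Cytosolic ribosomal protein genes held 5.04% ± 0.083 of the summed intensity, the largest share of the lists examined. Of the 33 measured, 28 were above 5, their median SD was 0.081, and none had a range over 1. RpL36A was the brightest, at 13.93 ± 0.07. RpS5b, a ribosomal protein gene copy used in the ovary, was at 13.44 ± 0.04. The 5 below the limit, RpL37-2, RpL10Aa, RpS19b, RpS10a and RpS28a, are second copies of ribosomal protein genes. Translation factors had a median level of 12.07, with eIF4A, the helicase that opens messages for the ribosome, at 13.91 ± 0.13 and eEF5 at 13.64 ± 0.05. The elongation factor copy eEF1alpha2 stood apart from them at 6.40 ± 0.40 and was the only one with a range over 1.

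Proteasome subunits, which degrade ubiquitin-tagged proteins, showed a narrow band of levels. All 26 were between 8.81 and 11.63, with a median SD of 0.089, and none had a range over 1. Line 2 was the highest for 16 of the 26 and line 1 the lowest for 15. Over all features above 5 these shares were 23.5% and 26.9%. The polyubiquitin genes Ubi-p5E and Ubi-p63E were at 14.18 ± 0.23 and 13.35 ± 0.33, and line 2 was the lowest for both. The probe set for Ubi-p5E is marked on the array as matching a sequence family, so its signal may hold other ubiquitin messages. Hsc70-4, a chaperone that cells make without stress, was at 13.67 ± 0.09 and the peptidyl-prolyl isomerase Cyp1 at 13.53 ± 0.08. The cytoskeletal genes were equally steady, with a median SD of 0.11 over 8 genes (0.075 without line 1), led by tsr, the actin-severing cofilin, at 12.99 ± 0.06.

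Energy genes were bright as well. Of 61 measured genes of oxidative phosphorylation, 53 were above 5, with a summed share of 2.42% ± 0.22. The ADP/ATP carrier sesB was the brightest at 13.76 ± 0.08, ahead of the outer membrane channel porin at 12.54 ± 0.10 and the ATP synthase subunit blw at 12.47 ± 0.05. Their ordering over lines was shared. Line 1 was the highest for 48 of the 53 and line 2 the lowest for 38, while no member had a range over 1. Over all features above 5 these shares were 32.5% and 24.6%. The range of the list's score was 0.46, with 0.27 without line 1 and 0.14 without lines 1 and 2. The 64 mitochondrial ribosomal protein genes were all above 5, at 6.95 to 10.25. Line 1 was the highest for 44 of them, and the score's range was 0.22, or 0.11 without line 1 and 0.028 without lines 1 and 2. The 9 glycolytic genes had a median level of 10.97. Gapdh1 led them at 12.49 ± 0.23, and line 2 was the lowest for 7 of the 9. The 15 subunits of the proton pump V-ATPase, which acidifies organelles and gut and tubule lumens, were at 9.37 to 11.91 with a median SD of 0.12.

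The gut was represented by bright digestive enzymes. Of 24 measured serine proteases of the midgut, 23 were above 5 and 9 were among the 100 brightest named genes. They held 1.51% ± 0.21 of the summed intensity, from 1.23% to 1.82% over lines. Jon65Aiii read 13.43, 12.96, 13.14, 12.76 and 13.14 in lines 1 to 5, and yip7 read 13.20, 13.00, 12.98, 12.87 and 13.17. Line 1 was the highest and line 4 the lowest for both. The 4 brightest of the 7 lysozymes, which digest the walls of food bacteria, were LysD, LysB, LysE and LysC at 12.76, 12.18, 11.95 and 11.21. Their probe sets are all marked as matching a sequence family, so the 4 values are not separate. Among the sugar-digesting enzymes, the glucosidase tobi was at 10.83 ± 0.49, and the maltase genes Mal-A1 and Mal-A6 at 10.79 ± 0.26 and 10.25 ± 0.33.

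Fat body, oenocyte and detoxification lists each held a few bright members. Cyp4g1, the oenocyte P450 that makes the waxy hydrocarbons of the cuticle, was the fourth brightest named gene and read 14.10, 13.97, 14.06, 13.99 and 14.27 in lines 1 to 5. The next P450 was Cyp6g1, known for its part in resistance to DDT, at 12.55 ± 0.16. Of 80 measured P450 genes, 39 were above 5, where the share over all features was 57.8%. For glutathione transferases 22 of 34 were above 5, with GstD1 in front at 13.19 ± 0.10, and for UDP-glycosyltransferases 11 of 33. Of 17 fat body genes 14 were above 5, with a median level of 9.62 over all 17, led by the fatty acid synthase FASN1 at 11.54 ± 0.12 and the lipid carrier gene apolpp at 11.16 ± 0.23. The ferritin subunits Fer1HCH and Fer2LCH, which store iron, were at 12.24 ± 0.14 and 11.63 ± 0.08.

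Lists of the head, blood, tubules and epidermis were mixed in level. The share above 5 over all features was 57.8%, and the neural, odorant-binding, cuticle and eye pigment lists lay below it. Of 18 measured neural genes, 6 were above 5, with nrv3, a sodium pump subunit of neurons, the highest at 8.29 ± 0.42. Photoreceptor genes reached 10.44 ± 0.41 for Arr2, the main arrestin that switches rhodopsin off, and 11 of 14 were above 5. Of 35 odorant-binding protein genes 13 were above 5. The brightest of these were Obp99c at 11.48 ± 0.18 and Obp99a at 11.47 ± 0.20. Of 93 genes for cuticle proteins, most of which serve the moults of younger stages, 12 were above 5. Hemocyte genes reached 8.50 ± 0.19 for SPARC, a collagen-binding protein of basement membranes, and the Malpighian tubule list reached 10.71 ± 0.11 for the aquaporin gene Prip. Above 5 were 8 of 13 hemocyte and 8 of 10 tubule genes. The clock list, with 7 of 10 above 5, was led by the kinase gene dco at 10.03 ± 0.08, which also has roles outside the clock. Of 7 eye pigment genes, 2 were above 5, cl at 8.85 ± 0.12 and Pu at 6.11 ± 0.39. The list of genes of the mitochondrial genome matched 0 measured genes.

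Male markers checked the label. None of the 17 accessory gland genes and none of the 18 testis genes was above 5, with median levels of 3.56 and 3.38. The highest were Acp32CD at 4.26 and ProtB, a sperm protamine, at 4.41. The 2 measured Turandot genes, which answer stress in flies, also lay below 5. Heat-shock genes, by contrast, were partly bright. Hsp26 and Hsp27, small chaperones that the ovary also makes without heat, were at 12.85 ± 0.21 and 12.00 ± 0.14, and 13 of the 17 measured were above 5.

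Most genes differed little between lines. The median SD over the 7147 features was 0.16 and the median difference between the highest and lowest line was 0.40, or 1.32-fold. Of these features, 594 (8.31%) had a range over 1, 49 had a range over 2, which is 4-fold, and 324 (4.53%) had an SD over 0.5. Without line 1, 297 had a range over 1 and 212 an SD over 0.5, and without lines 1 and 2 the numbers were 105 and 123. A range over fewer lines cannot exceed the range over all 5, so part of this fall was fixed in advance. Without line 2, 3, 4 or 5 alone, 452, 516, 499 and 527 had a range over 1. No other pair of lines was left out for comparison. The 9 probe sets of the hybridisation controls, bacterial and phage transcripts that this kind of assay adds after labelling, had SDs of 0.12 to 0.19 with a median of 0.16. The medians for genes and for these controls were the same to 2 decimals. Spread fell with brightness. A range over 1 was found in 14.4% of the 2144 features between 5 and 7, in 5.73% of those between 7 and 9, in 5.84% of those between 9 and 11 and in 5.21% of the 403 above 11.

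**Figure D2:**
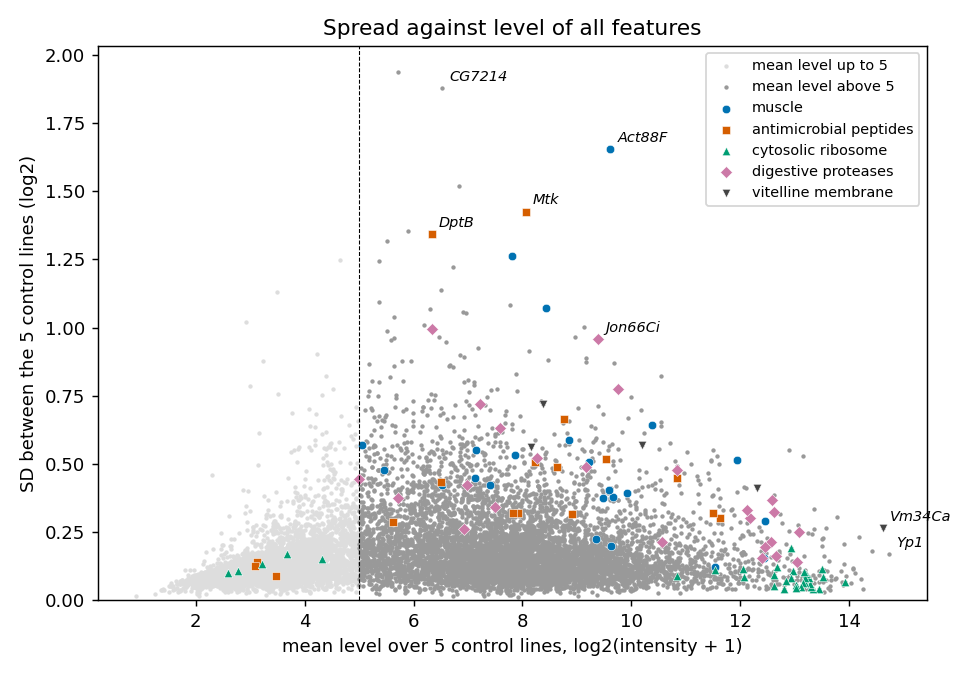
Mean level over the 5 control lines (horizontal axis, log2(intensity + 1)) against the SD between lines (vertical axis, log2 units) for all features. Features with a mean up to 5 are paler, and a dashed line marks 5. Coloured symbols show the muscle, antimicrobial, cytosolic ribosome, digestive protease and vitelline membrane lists, and selected genes are labelled. The median SD of features with a mean above 5 is 0.16, and Act88F and CG7214 lie far above it at 1.66 and 1.88.

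The lines did not contribute equally to this spread. Over all 7147 features the highest line was line 1 in 32.5%, line 2 in 23.5%, line 3 in 12.6%, line 4 in 19.4% and line 5 in 12.1%. The lowest line was line 1 in 26.9%, line 2 in 24.6%, line 3 in 16%, line 4 in 16.7% and line 5 in 15.8%. Among the 594 features with a range over 1, line 1 was the highest in 312 (52.5%) and line 2 the lowest in 240 (40.4%). Line 1 above line 2 was the most frequent pair, with 107 features, followed by line 1 above line 4 with 94. None of the 30 brightest genes had a range over 1. By the mean deviation of members from their own means, line 1 was the highest in 19 of the 32 lists scored. Lines 2 and 4 were each the lowest in 10 of these lists.

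The 30 genes with the largest SD covered flight muscle, immune peptides, digestive proteases, P450 enzymes and genes of unknown role. Their SDs ran from 0.87 to 1.88. Line 2 was the lowest for 15 of the 30 and line 4 for 9, while line 1 was the highest for 11 and line 5 for 10. Over all features above 5 these shares were 24.6%, 16.7%, 32.5% and 12.1%. Among features with a range over 1 they were 40.4%, 18.7%, 52.5% and 17.0%. CG7214, to which no role is given here, was first and read 8.03, 4.38, 4.66, 7.21 and 8.34 in lines 1 to 5. Its lines fell apart into a low pair, lines 2 and 3, and 3 high lines, with a 15.6-fold difference between line 5 and line 2. CG7203 read 8.46, 6.79, 6.59, 7.91 and 9.12, with the same low pair. Nplp3, a gene for a neuropeptide-like precursor, read 9.87, 7.85, 8.27, 8.81 and 10.05. Cpr49Ae, a cuticle protein gene, read 7.57, 5.84, 6.19, 7.07 and 7.96. In all 4 genes lines 1, 4 and 5 were above lines 2 and 3.

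**Figure D3:**
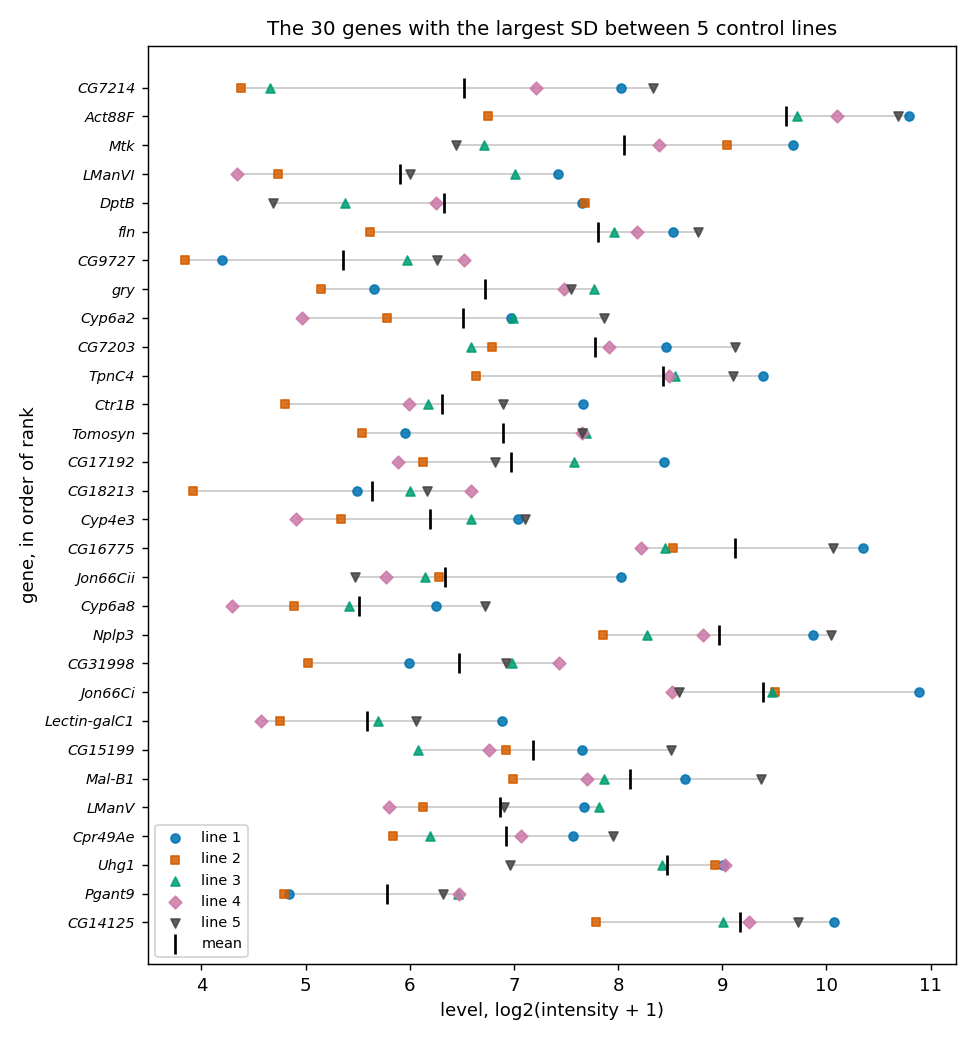
Levels of the 30 named genes with the largest SD between control lines, in log2(intensity + 1), with 1 symbol per line. Flight muscle genes such as Act88F have 1 low value, line 2 at 6.76, whereas CG7214 has a low pair, lines 2 and 3.

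Flight muscle genes were low in line 2. Act88F, the actin of the indirect flight muscles, read 10.79, 6.76, 9.72, 10.10 and 10.69 in lines 1 to 5, a 16.4-fold difference between line 1 and line 2. Flightin (fln), a thick filament protein of the same muscles, read 8.53, 5.62, 7.96, 8.18 and 8.77. TpnC4, a troponin C gene of flight muscle, read 9.39, 6.64, 8.55, 8.49 and 9.10. Line 2 was below every other line for each of the 3. The other 4 lines still differed, from 9.72 to 10.79 for Act88F. Without line 2 the SDs were 0.51 for Act88F, 0.36 for fln and 0.44 for TpnC4, against 1.66, 1.26 and 1.07 with it.

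The muscle list as a whole, these 3 genes included, had 23 measured genes, all above 5. Of these, 14 (60.9%) had a range over 1, against 8.31% of all features above 5, and line 2 was the lowest for 18, where it was the lowest in 24.6% of all. Line 3 was the lowest for 4 of the 23, against 16% of all. One of these was TpnC41C, another troponin C gene, at 9.88, 8.80, 8.68, 9.14 and 9.58. Every other member of the list had a smaller range than Act88F, fln and TpnC4. The widest of these were Mlc1, Zasp52 and up, with ranges of 1.59, 1.53 and 1.52, above the 1.19 of TpnC41C. Myosin light chain gene Mlc1 read 10.92, 9.44, 10.13, 10.34 and 11.03, and Mlc2 read 12.47, 11.22, 11.65, 11.98 and 12.37. The calcium pump gene SERCA was at 12.55, 11.98, 12.42, 12.60 and 12.74, and arginine kinase gene Argk1, which buffers energy in muscle, at 12.46, 12.29, 12.35, 12.35 and 12.68. These last had ranges of 0.76 and 0.39. The list's share of the summed intensity went from 0.44% to 0.76% over lines. Its score was 0.41, -0.73, -0.15, 0.01 and 0.46 in lines 1 to 5, with a range of 1.19, or 0.60 without line 2. In line 2 the mean 3′ excess of the control genes, at 1.93, was below that of line 1 and above the others, and its part in the muscle values was not tested.

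Photoreceptor and neural genes shared part of that order. The photoreceptor list had a score of 0.38, -0.47, -0.19, -0.14 and 0.41 in lines 1 to 5, so that lines 1 and 5 were high and line 2 low, and 5 of its 11 genes above 5 (45.5%) had a range over 1, against 8.31% of all features above 5. The channel gene trpl read 6.62, 5.28, 6.50, 6.03 and 7.16, and its relative trp read 7.17, 6.06, 6.67, 6.30 and 7.15. Arr2 read 10.94, 10.14, 10.14, 10.16 and 10.83. The neural list's score was 0.31, -0.31, -0.06, -0.20 and 0.26, and 1 of its 6 genes above 5 had a range over 1. This was Ddc, the enzyme that completes dopamine and serotonin synthesis, which read 7.62, 6.42, 6.69, 6.79 and 7.39. Odorant-binding protein genes also peaked in line 1, the highest for 11 of 13 against 32.5% of all features, and the range of their score was 0.66, or 0.42 without line 1.

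Antimicrobial peptide genes varied in 2 ways. Mtk, for the antifungal peptide metchnikowin, read 9.68, 9.05, 6.71, 8.39 and 6.45 in lines 1 to 5. DptB, for the antibacterial peptide diptericin B, read 7.66, 7.69, 5.38, 6.26 and 4.68. Both were high in lines 1 and 2 and low in lines 3 and 5, with 9.41-fold and 8.01-fold differences between the highest and lowest line. Without lines 1 and 2 their SDs were 1.05 and 0.79, against 1.43 and 1.34 with all lines. Other members moved less and in another order. Drs, for the antifungal drosomycin, read 12.01, 11.28, 11.24, 11.35 and 11.63, and IM33 read 11.98, 11.45, 11.27, 11.53 and 11.90. The bomanin gene BomS6, one of a family of short immune peptides, read 11.51, 10.64, 10.29, 10.81 and 10.95. Of 17 measured, 14 were above 5, and 8 of these (57.1%) had a range over 1, against 8.31% of all features above 5. Line 1 was the highest for 12, against 32.5% of all, and line 3 the lowest for 10, against 16%. The list's score had a range of 1.20, or 0.60 without line 1. Of 11 immune recognition genes, 7 were above 5. PGRP-SB1, a peptidoglycan recognition protein, read 7.23, 7.53, 6.19, 6.99 and 6.34, with lines 1 and 2 above lines 3 and 5 as in DptB.

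As a list, digestive proteases were highest in line 1 and lowest in line 4. Line 1 was the highest for 19 of the 23 genes above 5 and line 4 the lowest for 16, and 10 of the 23 (43.5%) had a range over 1. Over all features above 5 these shares were 32.5%, 16.7% and 8.31%. Line 5 was mixed. It was the lowest for 3 of the genes, against 15.8% of all features. It was the highest for 2, Jon65Aiv and Jon74E, against 12.1%. Jon66Cii read 8.02, 6.28, 6.15, 5.78 and 5.47 in lines 1 to 5. Its neighbour Jon66Ci read 10.89, 9.51, 9.48, 8.52 and 8.58. Both are serine proteases of the Jonah family, and line 1 was above every other line for each. Without line 1 their SDs were 0.37 and 0.55, against 0.99 and 0.96. The list's score was 0.53, 0.08, -0.04, -0.38 and -0.18, with a range of 0.92, or 0.46 without line 1 and 0.34 without lines 1 and 2. Lysozymes were also highest in line 1, for 6 of 7 genes against 32.5% of all features, with a score range of 0.83, or 0.42 without line 1. LysD, LysB, LysE and LysC are among these 6, and their values are not separate. The rest of the 6 are LysP and LysX. The maltase gene Mal-B1 behaved otherwise and read 8.64, 6.99, 7.86, 7.71 and 9.37, highest in line 5.

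**Figure D4:**
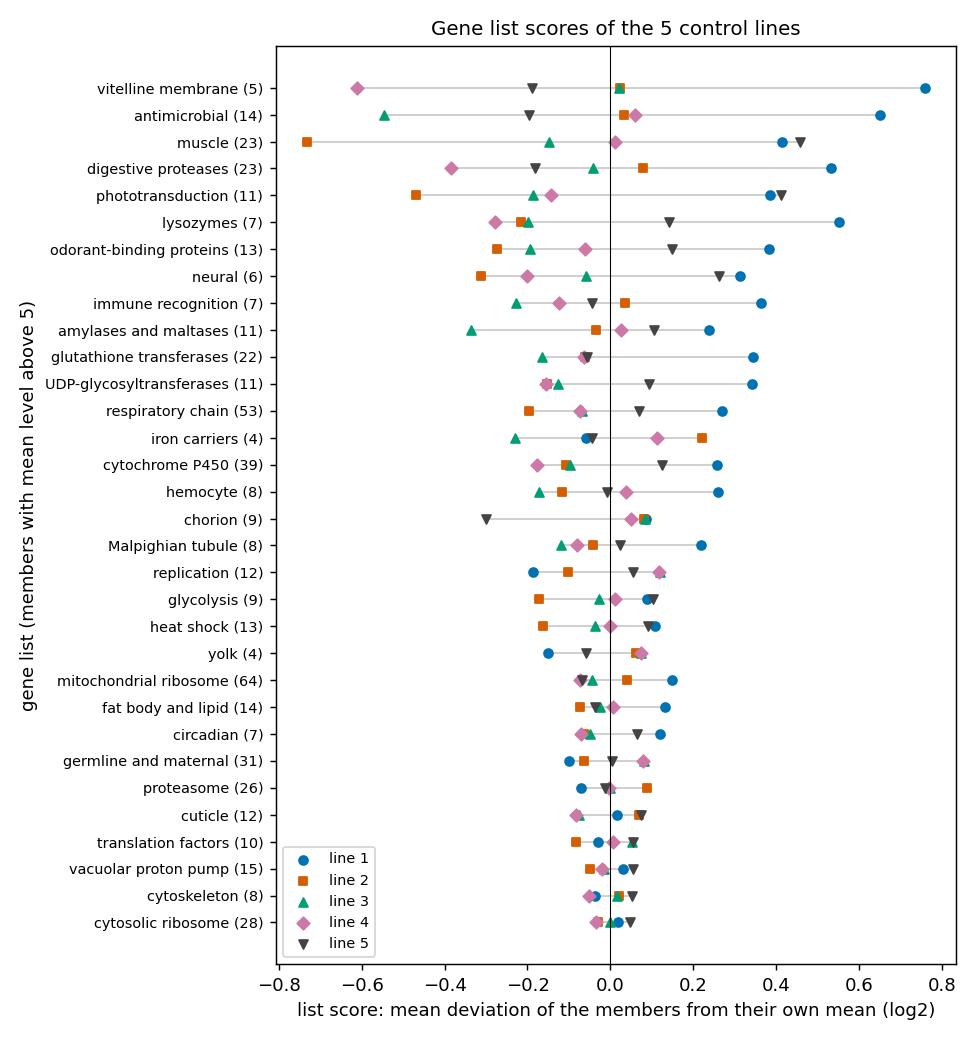
Mean deviation of each gene list's members from their own means (log2 units) in control lines 1 to 5, for the 32 lists scored. Muscle is lowest in line 2 at -0.73, vitelline membrane goes from 0.76 in line 1 to -0.61 in line 4, and chorion is lowest in line 5 at -0.30.

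Some detoxification genes were low in line 4 and line 2. Cyp6a2, a P450 raised in insecticide-resistant strains, read 6.97, 5.78, 6.99, 4.97 and 7.86 in lines 1 to 5. Cyp6a8 read 6.26, 4.89, 5.42, 4.29 and 6.72, and Cyp4e3 read 7.04, 5.34, 6.59, 4.91 and 7.11. All 3 were lowest in line 4, next lowest in line 2, and highest in line 5. The lysosomal alpha-mannosidase genes LManVI and LManV, which are neighbours on arm 2L, had lines 4 and 2 low as well. LManVI read 7.42, 4.74, 7.01, 4.35 and 5.998, and LManV read 7.68, 6.12, 7.81, 5.80 and 6.90. The lectin gene Lectin-galC1 read 6.88, 4.75, 5.69, 4.57 and 6.06, with the same low pair. Of the 39 P450 genes above 5, 5 (12.8%) had a range over 1, against 8.31% of all features above 5. Among these 5, Cyp6a17 read 5.25, 5.27, 6.02, 6.17 and 4.15, highest in line 4 and lowest in line 5. Cyp6a18 was highest in line 1 and lowest in line 2. The bright Cyp4g1 and Cyp6g1 had ranges of 0.30 and 0.40. Glutathione transferases had a score of 0.35 in line 1 and -0.17 to -0.06 in the others, and a score range of 0.51, or 0.10 without line 1. GstE5 was the widest of them, at 6.58 in line 1 and 4.55 to 5.31 in the others.

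Other variable genes belonged to no large group. Ctr1B, a copper importer, read 7.67, 4.80, 6.18, 5.99 and 6.90 in lines 1 to 5, with line 2 the lowest, and its SD was 1.07, or 0.48 without lines 1 and 2. Lsp2, a larval storage protein gene that the adult fat body also uses, read 9.36, 10.29, 9.90, 10.53 and 8.34, with line 5 the lowest. The iron carrier gene Tsf1 (transferrin), which also responds to infection, read 9.76, 10.93, 9.26, 10.78 and 10.11. Uhg1, a host gene of small nucleolar RNAs, was low in 1 line only. It read 9.01, 8.93, 8.42, 9.03 and 6.96, and its SD was 0.88, or 0.29 without line 5. CG16775 read 10.36, 8.53, 8.45, 8.22 and 10.06, with lines 1 and 5 above the other 3, and CG15199 read 7.65, 6.93, 6.08, 6.76 and 8.51 with the same high pair. CG17192 was highest in line 1, at 8.44, and lowest in line 4, at 5.89. CG14125 was lowest in line 2, at 7.79 against 9.01 to 10.07 in the others, and its SD was 0.87, or 0.48 without line 2. No role is given here to these 4 genes. The inducible chaperone gene Hsp68 read 8.62, 7.83, 6.81, 7.84 and 7.95.

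In 6 of the 30 most variable genes, lines 1 and 2 were both below lines 3, 4 and 5. The same order was found in 154 of the 594 features with a range over 1, so it was not particular to the 30. Gryzun (gry) read 5.66, 5.14, 7.77, 7.48 and 7.54 in lines 1 to 5. Tomosyn, a SNARE-binding regulator of secretion, read 5.96, 5.55, 7.69, 7.65 and 7.65. Pgant9, a glycosyltransferase that starts mucin-type sugar chains, read 4.84, 4.79, 6.46, 6.47 and 6.32. In each of these the 3 high lines lay close together, and without lines 1 and 2 the SDs were 0.15 for gry, 0.021 for Tomosyn and 0.085 for Pgant9, against 1.22, 1.06 and 0.88 with all lines. The others were CG9727, whose SD was 1.25, or 0.27 without lines 1 and 2, CG18213 and CG31998. Without line 2 the SDs of the last 2 were 0.45 and 0.61 in place of 1.04 and 0.97, and without both lines 0.30 and 0.28. The mean 3′ excess of the control genes was 2.27 and 1.93 in lines 1 and 2, against 1.72 to 1.87 in the other lines.

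The lines' order went with the length of the gene. The span is the distance from the start to the end of a gene, introns included, and its median was 2661 bp over the 6324 features above 5 that had one. Of the 594 features with a range over 1, 508 had a span, and the medians that follow skip the rest. Lines 1 and 2 were both below the others in 154 of the 594, with a median span of 8807 bp. Both were above the others in 60, with a median span of 1144 bp. The median was 1749 bp where line 1 was the highest, 7984 bp where line 1 was the lowest and 5400.5 bp where line 2 was the lowest. When all features were put into 4 equal classes of span, the mean deviation in the shortest class was 0.17, 0.024, -0.089, -0.080 and -0.025 in lines 1 to 5. In the longest class it was -0.046, -0.16, 0.053, 0.072 and 0.083. Lines 1 and 2 were thus lower in the longest class than in the shortest, and lines 3, 4 and 5 higher. A range over 1 was found in 10.3%, 5.32%, 5.82% and 10.7% of the 4 classes, from short to long. The 3′ excess of eIF4A was 3.26, 2.77, 2.45, 2.68 and 2.57 and that of actin 1.69, 1.25, 1.18, 0.76 and 1.15, while Gapdh showed 1.71 to 1.90 with no such order. The part of RNA quality in the spread was not tested.

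**Figure D5:**
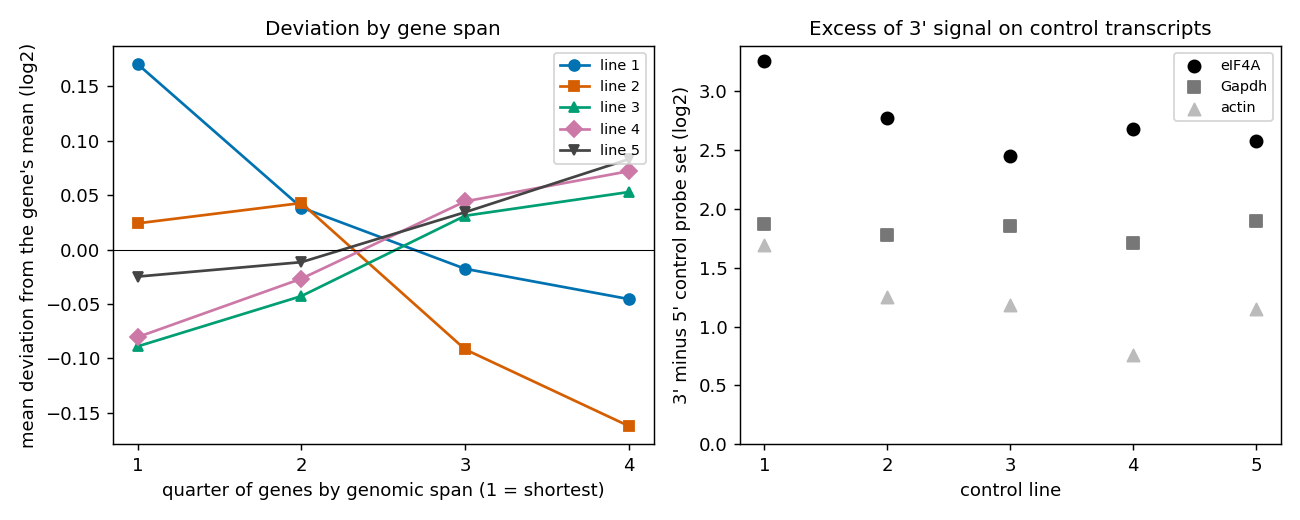
Left, mean deviation from the gene means (log2 units) by class of gene span, from shortest to longest, for each control line. Right, excess of 3′ over 5′ signal (log2 units) on 3 control genes by line. Line 1 goes from 0.17 to -0.046 and line 2 from 0.024 to -0.16, and line 1 has the highest excess for eIF4A, at 3.26, and for actin, at 1.69.

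Second probe sets gave a further view of the variable genes. Of the genes with a range over 1, 30 had a second probe set above 5, and for 10 (33.3%) of these the second also had a range over 1. Among 298 genes with a range of up to 1, the second probe set had a range over 1 for 74 (24.8%). In the 30 genes the same line was the highest on both probe sets for 15 and the same line the lowest for 14. These counts were not made for the 298 genes. Among all features with a range over 1, line 1 was the highest in 52.5% and line 2 the lowest in 40.4%. Shares so unequal give some agreement by themselves. The median range was 1.21 on the first and 0.75 on the second. In Tomosyn the first probe set, which the array marks as having fewer unique probes than usual, had a range of 2.14, and the other 3 above 5 did not read alike. The second had a range of 0.57 with line 1 the highest. The third had a range of 1.82 and read 4.66, 4.21, 5.77, 6.03 and 5.69 in lines 1 to 5, with lines 1 and 2 low as on the first. The next had a range of 0.30, with lines 1 and 2 also below the others. In CG31998 the second reached 1.45 against 2.41.

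The variable genes lay on all chromosome arms. A range over 1 was found in 8.33% of the features on arm 2L, 7.83% on 2R, 8.63% on 3L, 8.03% on 3R and 7.07% on X. On the small chromosome 4 it was 14.3%, or 5 of 35. Among the 100 most variable named genes there were 3 pairs of direct neighbours, LManV with LManVI, Jon66Ci with Jon66Cii, and CG11878 with CG10513.

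The 10 steadiest genes had SDs of 0.013 to 0.023. The smallest SD was 0.013, for mTerf5, of a family that binds mitochondrial DNA, at 7.92, 7.91, 7.91, 7.93 and 7.94 in lines 1 to 5. TBPH, the fly counterpart of the RNA-binding protein TDP-43, had an SD of 0.017 at a mean of 7.29. TfIIB, a general transcription factor, had an SD of 0.023 at 6.50, and Dbp21E2, a helicase, an SD of 0.019 at 7.80. Star (S), which sends growth factor ligands on their way through the cell, was at 9.37 with an SD of 0.018. The other 5 of the 10 steadiest were CG17977, CG9588, CG4709, CG5021 and the chloride channel gene Best2.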

How the data were processed

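The deposited table holds 1 value per probe set and array. The values are GCRMA intensities on a linear scale, per the submitters' processing notes and the range of the values. The platform's probe annotation gave 12443 probe sets with 1 gene, 327 with several and 1196 with none, and 12394 matched a gene of the RefSeq table (assembly Release 6 plus ISO1 MT), from which gene spans and chromosome arms were taken.

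The 5 control arrays were used as deposited, as log2(intensity + 1). The brightest probe set by mean stood for a gene. The spread is the SD over 5 lines with 1 array each, and the number of arrays limits its precision. Genes named are the 30 brightest, the 30 with the largest SD and the 10 with the smallest among those with mean above 5, and in each list the 3 brightest and the 2 widest members. Other genes were named after their values were seen. Members and lists were chosen with earlier results of these data known. Ribosomal entries with names ending in -like were left out after the table was opened. List symbols matched for all but 2 entries. Alternatives were a pseudocount of 16, quantile normalization, all probe sets, a level minimum of 7, MAD in place of SD, and leaving out lines. Work was done in Python 3.11.15 with numpy 2.4.6 and pandas 2.3.3, and the ranking was tested on simulated data.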

Additional observations from a re-analysis of the deposited data

Results flagged for a closer look

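In each named gene and list, 1 line was looked at for lying far from the other 4, by the gap to the nearest line over the whole range. Chance alone flags about 1 in 20 groups, and 6 of 194 named genes (3.09%) and 2 of 32 lists were found. Act88F, flight muscle actin, was at 6.76 in line 2 and at 9.72 to 10.79 in the others. Flightin (fln) was at 5.62 in line 2 and 7.96 to 8.77 in the others. Pfk, the control point of glycolysis, was at 9.27 in line 2 and 9.75 to 9.94 in the others. Vha44, a proton pump subunit, was at 9.99 in line 1 and 9.45 to 9.60 in the others. The mitochondrial ribosome gene mRpS33 was at 8.78 in line 1 and 8.02 to 8.11 in the others. CG4709, one of the steadiest genes, was at 7.80 in line 4 and 7.84 to 7.85 in the others. The chorion list had a score of -0.30 in line 5, and the glutathione transferase list a score of 0.35 in line 1.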

How the results depend on the processing

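The number of features with mean above 5 was 7134 to 7152 when 1 line was left out. The number with a range over 1 was 297 to 527, and with an SD over 0.5 it was 212 to 390, the lowest of each without line 1. From 28 to 30 of the brightest and 20 to 26 of the most variable genes were shared with the lists of 30. With lines 1 and 2 left out, an alternative chosen after seeing the data, 105 features had a range over 1, 123 an SD over 0.5, and 17 of the 30 most variable genes were shared. A pseudocount of 16 left 215 features with an SD over 0.5. With a level minimum of 7 there were 286 features with a range over 1, 150 with an SD over 0.5, and 12 shared genes. Ranking by MAD shared 16. The fewer features tested follow from the higher minimum, and a range over fewer lines cannot be larger than over all 5. For the other changes the cause was not tested. The SD of 9 of the 30 most variable genes changed by more than 1.5 times without 1 line. With lines 1 and 2 left out, the SD changed by as much in 14 of the 30, the score range in 21 of 32 lists and the median SD in 18 of 33. Values near 5 are limited by background. No paired analysis was possible because 1 group was described and no groups were compared.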
